A study of Homo sapiens with 21 samples.

Results

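The comparison described here set A673 cells in which mut9, a mutant of the EWS/FLI fusion, replaced the silenced fusion against A673 cells that had never lost it. Of the 21 RNA-seq libraries of the study it used 7, and the question was how far the mut9 state lay from the starting state. All genes that reached 10 on the linear scale in at least 3 of the 21 libraries were taken, which was 18040 of the 57820 in the table. A673 is an established human Ewing sarcoma cell line. The 4 control libraries (batches 1, 2, 3 and 5) came from cells with RNAi against Luciferase and an empty pMSCV-hygro vector. The 3 mut9 libraries (batches 3, 4 and 5) came from cells with RNAi against EWS/FLI that then received the mut9 cDNA in that vector. Side by side values come from 3 further groups with the same EWS/FLI RNAi: 5 knockdown libraries with the empty vector (batches 1 to 5), 5 libraries with full-length type IV EWS/FLI (called wild type, batches 1 to 5) and 4 with the delta 22 mutant (batches 1 to 4). Every arm was selected for 4 days before the rescue infection, so all of them carry an RNAi and a viral vector. The cells are 1 line, and nothing in the labels says whether batches were separate cultures, so p-values measure the spread between these libraries only.

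EWS/FLI joins the transcription-activating start of EWS to the DNA-binding ETS domain of FLI1. It binds single ETS sites and repeats of the letters GGAA, where it can turn on genes that are silent in other cells, and it lowers many genes of mesenchymal cells, among them those of the extracellular matrix. The mut9 protein keeps a shortened EWS part, whereas delta 22 lacks most of it. In such a rescue, an activated gene that is back at its starting level and a repressed gene that is still above it are both read against the control RNAi cells.

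The transcripts counted for FLI1 include intact FLI1, the fusion and the rescue construct, which cannot be told apart in a gene-level table. FLI1 was 11.69, 11.61, 11.56 and 11.68 (log2 normalized value) in the control libraries and 10.39, 10.20 and 10.10 in the mut9 libraries. It was 9.59 to 9.99 in the knockdown libraries and 10.35 to 10.69 in the wild type libraries, so mut9 lay below control and above knockdown with no overlap, and overlapped wild type. FLI1 was 2.65-fold lower with mut9 than in control (exact permutation test, 2-sided p = 0.0571, the smallest that 35 arrangements allow, 0.0914 adjusted over 8 tests). EWSR1, the other partner gene, was 1.25-fold lower (exact permutation p = 0.0571, 0.0914 adjusted).

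The table holds values that the authors had already normalized and put on a log2 scale, and neither read totals nor depth is known. Between 16708 and 17326 genes per library reached 10 on the linear scale. Markers of other cell types were mixed in both groups. Of those matched, 1 of 9 endothelial, 6 of 12 epithelial and 6 of 12 immune markers lay under the filter, among them CDH1 between -0.75 and -0.53 and CD3E at -2.55, and VWF lay at 2.10 to 2.71. Others were well above it: the keratin genes KRT18 at 12.57 to 13.65 and KRT8 at 8.65 to 10.37, EMCN at 8.66 to 10.07 and CD79A at 8.09 to 8.94. Of the markers that could be tested, 2 of 8 endothelial, 1 of 6 epithelial and 3 of 6 immune markers were higher with mut9 and none was lower. The endothelial count was 1 under quantile scaling, in batches 3 to 5 alone, and without any 1 control library or mut9 of batch 3 or 5. Epithelial markers had 2 lower under quantile scaling or weights per library, and 1 without control of batch 1 or mut9 of batch 3. Immune markers had 1 lower under weights. The part of such markers in the results below was not tested. Among the higher ones, KDR, a receptor for vascular endothelial growth factor, was 5.12 to 6.03 in control and 8.35 to 8.54 with mut9. The integrin chain ITGAM, also among the higher ones, was 5.28 to 5.66 and 7.49 to 8.11. In bulk RNA, a lower value can come from fewer cells of a type or from less RNA per cell, and these cannot be told apart.

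Between mut9 and control, 7659 of 18040 genes (42.5%) passed the test, with 4245 higher (23.5%) and 3414 lower (18.9%). The test was limma fitted to all 21 libraries, and a gene is called below an adjusted p of 0.05 (Benjamini-Hochberg over all 18040 genes). Large differences went mainly upward. At least 2-fold, 1713 genes (9.5%) were higher and 352 (1.95%) lower; at least 8-fold, 182 were higher and 8 lower. The median absolute difference was 0.298 on the log2 scale for mut9, beside 0.254 for wild type against control and 0.503 for knockdown against control, contrasts that share the control libraries. Median standard errors were 0.16 for mut9, with fewer libraries, and 0.14 for wild type and for knockdown. A median of absolute differences grows with such noise, so 0.298 and 0.254 do not rank mut9 and wild type by distance from control. By the same test 39.6% of genes were called in wild type against control (21.3% higher, 18.3% lower) and 69.5% in knockdown against control (35.5% higher, 34.0% lower). The mut9 and control libraries did not overlap in 50.6% of genes, against which the separate groups named below are read. The 95% interval of the difference lay within 0.5 of 0 for 6166 genes (34.2%) and within 1 of 0 for 13474 (74.7%). Scaling the libraries to equal quantiles moved the median difference of all genes from 0.027 to -0.116 and the share of higher calls from 55.4% to 38.4%, so small differences carry no firm direction. The smaller differences in the lists below are read beside that shift. Counts of list members called against control are read beside the 23.5% higher and 18.9% lower of all genes.

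**Figure D1:**
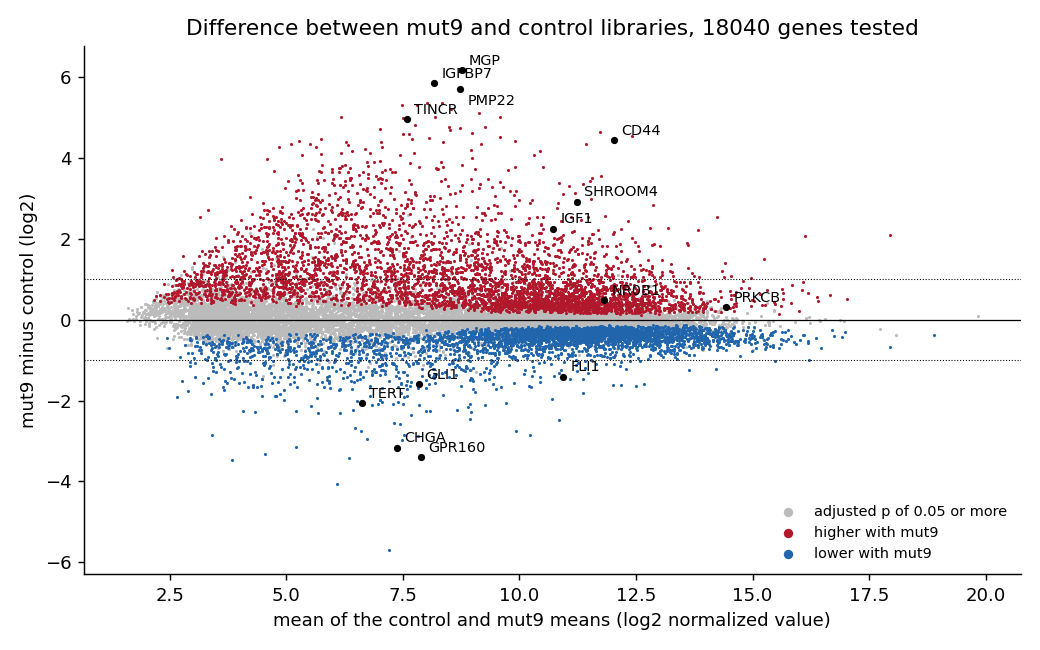
Each point is 1 of the 18040 genes tested, with the mean of the control and mut9 means on the horizontal axis (log2 normalized value) and mut9 minus control on the vertical axis (log2); red and blue mark the 4245 higher and 3414 lower calls, dotted lines mark 2-fold, and black points mark 14 named genes. Points above the upper dotted line far outnumber those under the lower one, and NR0B1 and PRKCB lie near 0 while MGP, IGFBP7 and PMP22 lie at the top.

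Within batches the counts of large differences were read from single libraries. Mut9 minus control of batch 3 gave 1745 genes at least 2-fold higher and 393 at least 2-fold lower, and that of batch 5 gave 1699 and 518. Batch 4 has no control library in the data used. Refitting with the batch as a block called 8035 genes, 7250 of them among the 7659, and batches 3 to 5 alone called 5583, with 5425 among them (70.8% of the 7659).

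Genes listed as activated by EWS/FLI lay on both sides of control. Of 47 tested, 8 were higher, 16 were lower and 23 did not pass, with a median difference of -0.20. At least 2-fold, 3 were higher and 10 lower, beside 9.5% and 1.95% of all genes. For the same genes the median was -2.77 in knockdown, -3.26 in delta 22 and -0.17 in wild type. In knockdown 41 were lower than control and 4 were higher, against the name of the list, beside 34.0% and 35.5% of all genes. The list was written from general knowledge of studies that partly used this cell line, so it is not independent evidence of its direction. In batches 3 to 5 alone 5 were higher, and 13 were when only the compared groups entered the fit.

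PRKCB, a protein kinase C, was 14.13, 14.29, 14.35 and 14.38 in the control libraries, 14.68, 14.63 and 14.47 with mut9, and 9.73 to 11.50 in knockdown. All 3 mut9 libraries lay above all 4 control libraries, but the difference of 0.30 (SE 0.34) had an adjusted p of 0.504. NR0B1 encodes the nuclear receptor DAX1, whose promoter region holds a well known GGAA repeat. It was 11.51, 11.60, 11.69 and 11.52 in control and 12.22, 12.14 and 11.82 with mut9 (difference 0.48, SE 0.29, adjusted p = 0.201). Both genes passed when only the compared groups entered the fit, with adjusted p of 0.0117 for PRKCB and 0.00372 for NR0B1. The repressor gene NKX2-2 had a difference of 0.22 (adjusted p = 0.362), the metalloreductase gene STEAP1 of -0.23 (0.265) and the stem cell factor SOX2 of 0.03 (0.915). None of these 5 passed in the unweighted fit of all libraries. With weights per library NR0B1 (0.51, adjusted p = 0.0406) and NKX2-2 (0.35, adjusted p = 0.0329) passed.

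Some activated targets went past the control level. IGF1, a secreted growth factor, was 9.44, 9.70, 9.75 and 9.52 in control, 12.16, 11.81 and 11.60 with mut9, and 6.47 to 8.35 in knockdown. It rose by 2.26 above control (SE 0.31, adjusted p = 1.08e-05), and wild type, at 11.24 to 11.72, was above control by 1.92. GSTM4, a glutathione transferase, was 12.29 to 12.95 in control, 13.43 to 13.66 with mut9 and 11.89 to 12.98 in wild type. It was higher with mut9 than in control by 0.83 (adjusted p = 0.00356) and than in wild type by 1.22 (0.000512); in batches 3 to 5 alone the difference from control was 0.72 with an adjusted p of 0.0844. GSTM genes are near-identical in places and may share reads. The receptor gene FCGRT was above control by 0.72 and the peptide hormone gene APELA by 1.37, both named after their values were seen.

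Others stayed under it. GLI1, a transcription factor of the hedgehog pathway, was 9.15, 8.48, 8.22 and 8.71 in control, 7.23, 7.07 and 6.84 with mut9, and 4.54 to 5.08 in knockdown. It lay 1.59 below control (the value is -1.59, SE 0.21, adjusted p = 8.57e-06), with no overlap. TERT, the catalytic subunit of telomerase, was 7.43 to 8.04 in control, 5.39, 5.45 and 5.91 with mut9 and 4.36 to 5.41 in wild type, a difference from control of -2.07 (adjusted p = 7.41e-05). The receptor gene KIT differed from control by -1.45 (adjusted p = 0.000879). PPP1R1A, an inhibitor of protein phosphatase 1, differed by -2.75, the pituitary factor POU1F1 by -2.85 and CLUL1 by -2.28. Their wild type differences from control were -1.89, -2.16 and -1.94, and their knockdown differences were -5.56, -5.21 and -5.35.

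Genes near GGAA repeats that earlier work tied to the fusion also lay on both sides of control. Of 22 tested, 6 were higher, 3 were lower and 13 did not pass, with a median of 0.19 beside 0.027 over all genes. The list had 40.9% called, beside 42.5% of all genes (23.5% higher, 18.9% lower), so lying on both sides is not particular to it. The block by batch put 6 lower, weights per library and the fit of the compared groups alone each put 5, leaving out mut9 of batch 5 put 1 lower, and batches 3 to 5 alone put 3 higher. In knockdown the median was -2.36. The list mean per library was 11.96 to 12.08 in control, 12.31, 12.28 and 11.96 with mut9, and at most 10.38 in knockdown, so mut9 and control overlapped and knockdown stood apart from both. The lower members were CAV1, LIPI and FEZF1. CAV1, the main coat protein of caveolae, was 16.57, 16.85, 16.96 and 16.87 in control and 16.08, 16.00 and 16.24 with mut9 (difference -0.71, SE 0.14, adjusted p = 0.000655).

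Promoter windows of 300 bases, 250 before and 50 after the start of each gene in RefSeq (GRCh38.p14), were searched for GGAAGGAA on either strand (TTCCTTCC on the strand shown), the shortest doubled form of the fusion's motif. It was found in 3.67% of 35116 windows, in 3.47% of those of genes tested, and in 66 of 1247 windows (5.29%) of genes at least 2-fold higher with mut9, beside 7 of 233 (3.0%) of genes at least 2-fold lower. Of 144 named genes with a window, 4 held it. Shown are 3 of these that differ in direction, with the match in capitals: CAV1, lower than control, and the membrane metalloprotease MMP14 and the interferon-stimulated SAMD9, both higher. A match describes these letters and is not a binding site. The NR0B1 window held 0 matches, so the repeat named above for that gene lies outside it. Windows of this length can miss such repeats, and the shares do not speak to them.
CAV1 (chr7:116524759-116525058, + strand): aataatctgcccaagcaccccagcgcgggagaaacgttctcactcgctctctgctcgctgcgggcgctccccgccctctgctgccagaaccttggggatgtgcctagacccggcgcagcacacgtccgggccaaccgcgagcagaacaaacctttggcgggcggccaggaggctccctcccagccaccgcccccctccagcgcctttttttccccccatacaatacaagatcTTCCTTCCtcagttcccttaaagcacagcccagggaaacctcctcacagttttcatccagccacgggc
MMP14 (chr14:22836335-22836634, + strand): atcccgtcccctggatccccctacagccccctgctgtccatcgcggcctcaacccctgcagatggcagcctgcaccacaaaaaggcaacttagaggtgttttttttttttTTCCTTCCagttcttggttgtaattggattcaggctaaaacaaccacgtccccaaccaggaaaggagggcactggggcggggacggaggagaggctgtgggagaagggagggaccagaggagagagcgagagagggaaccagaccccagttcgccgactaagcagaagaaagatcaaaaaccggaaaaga
SAMD9 (chr7:93117930-93118229, - strand): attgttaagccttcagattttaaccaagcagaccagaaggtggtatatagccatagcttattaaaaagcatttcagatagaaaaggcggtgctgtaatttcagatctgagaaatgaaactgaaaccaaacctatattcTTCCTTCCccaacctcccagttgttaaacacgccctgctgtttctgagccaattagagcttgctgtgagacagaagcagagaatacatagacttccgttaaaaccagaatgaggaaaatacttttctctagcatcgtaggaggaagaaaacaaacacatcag

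Neuroendocrine genes stood lower with mut9 than in both control and wild type in a few cases. Against wild type, 3390 of 18040 genes (18.8%) passed, 2018 higher with mut9 (11.2%) and 1372 lower (7.61%), and 134 of the lower ones (0.743%) differed at least 2-fold. CCK, the cholecystokinin peptide, was 9.47, 8.33, 8.64 and 9.43 in control, 5.30, 6.21 and 6.48 with mut9, 7.90 to 10.36 in wild type and 4.13 to 6.06 in knockdown. It differed from control by -2.97 (SE 0.48, adjusted p = 7.33e-05) and from wild type by -3.25 (adjusted p = 0.000146). Its mut9 values overlapped those of knockdown. CHGA, chromogranin A of secretory granules, was 8.63 to 9.32 in control, 6.14, 5.85 and 5.36 with mut9 and 7.01 to 8.82 in wild type, a difference of -3.17 from control and of -2.45 from wild type. CALCB, a calcitonin gene-related peptide, was 8.70 to 9.59 in control, 6.98, 6.83 and 6.77 with mut9 and 10.22 to 11.40 in wild type. Wild type CALCB lay above control by 1.43 and mut9 CALCB below it by 2.26 (the value is -2.26), with an adjusted p of 8.58e-07 for mut9 against wild type. Of the whole neural list, 4 of 20 were higher than control, among them GAP43 by 2.02, and 7 were lower, among them the neurofilament gene NEFH by -1.24 and synaptophysin, SYP, by -1.25. Its median was 0.04, and 2 were higher under quantile scaling and 7 with the compared groups alone.

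Genes that the fusion lowers lay between control and knockdown with mut9. Of 29 tested, 26 were higher than control, none was lower and 3 did not pass, with a median of 2.11 beside 1.16 in wild type and 3.75 in knockdown. Weights per library and the fit of the compared groups alone each put 1 lower. As above, the list was partly drawn from work in these cells. IGFBP7, a secreted binding protein of insulin-like growth factors, was 5.20, 5.52, 5.03 and 5.20 in control, 11.06, 11.05 and 11.17 with mut9, 8.04 to 9.00 in wild type and 12.58 to 13.02 in knockdown. The 4 groups did not overlap. It was above control by 5.86 (SE 0.19, adjusted p = 6.81e-14) and above wild type by 2.57 (adjusted p = 4.7e-08).

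CD44, the receptor for hyaluronan, was 9.29, 9.87, 10.09 and 9.96 in control, 13.94, 14.03 and 14.75 with mut9, 12.51 to 13.77 in wild type and 16.06 to 16.53 in knockdown, again without overlap. The difference from control was 4.44 (SE 0.24, adjusted p = 1.38e-10). PMP22, a peripheral myelin protein, was 5.73 to 5.97 in control, 11.49 to 11.65 with mut9 and 9.81 to 11.48 in wild type, a difference of 5.71 from control. The members that did not pass were TIMP3 at -0.67, FOXO3 at 0.31 and IL6 at 1.75. FOXO1, a transcription factor that the fusion is known to lower, was above control by 1.15 (adjusted p = 0.000431).

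Of these 29, 16 were also higher with mut9 than with wild type and none was lower, with a median of 0.89. That difference moved with the batch. The median of mut9 minus wild type was 0.33 in batch 3, 1.16 in batch 4 and 0.29 in batch 5. The list mean was 11.71, 11.81 and 11.70 in the mut9 libraries, while it was 11.19 and 11.25 in wild type batches 3 and 5 and 10.52 to 10.67 in wild type batches 1, 2 and 4. With batches 3 to 5 alone 8 of the 29 passed, and without mut9 of batch 4 10 did. The difference from control, by contrast, had medians of 2.06 and 1.95 in batches 3 and 5.

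**Figure D2:**
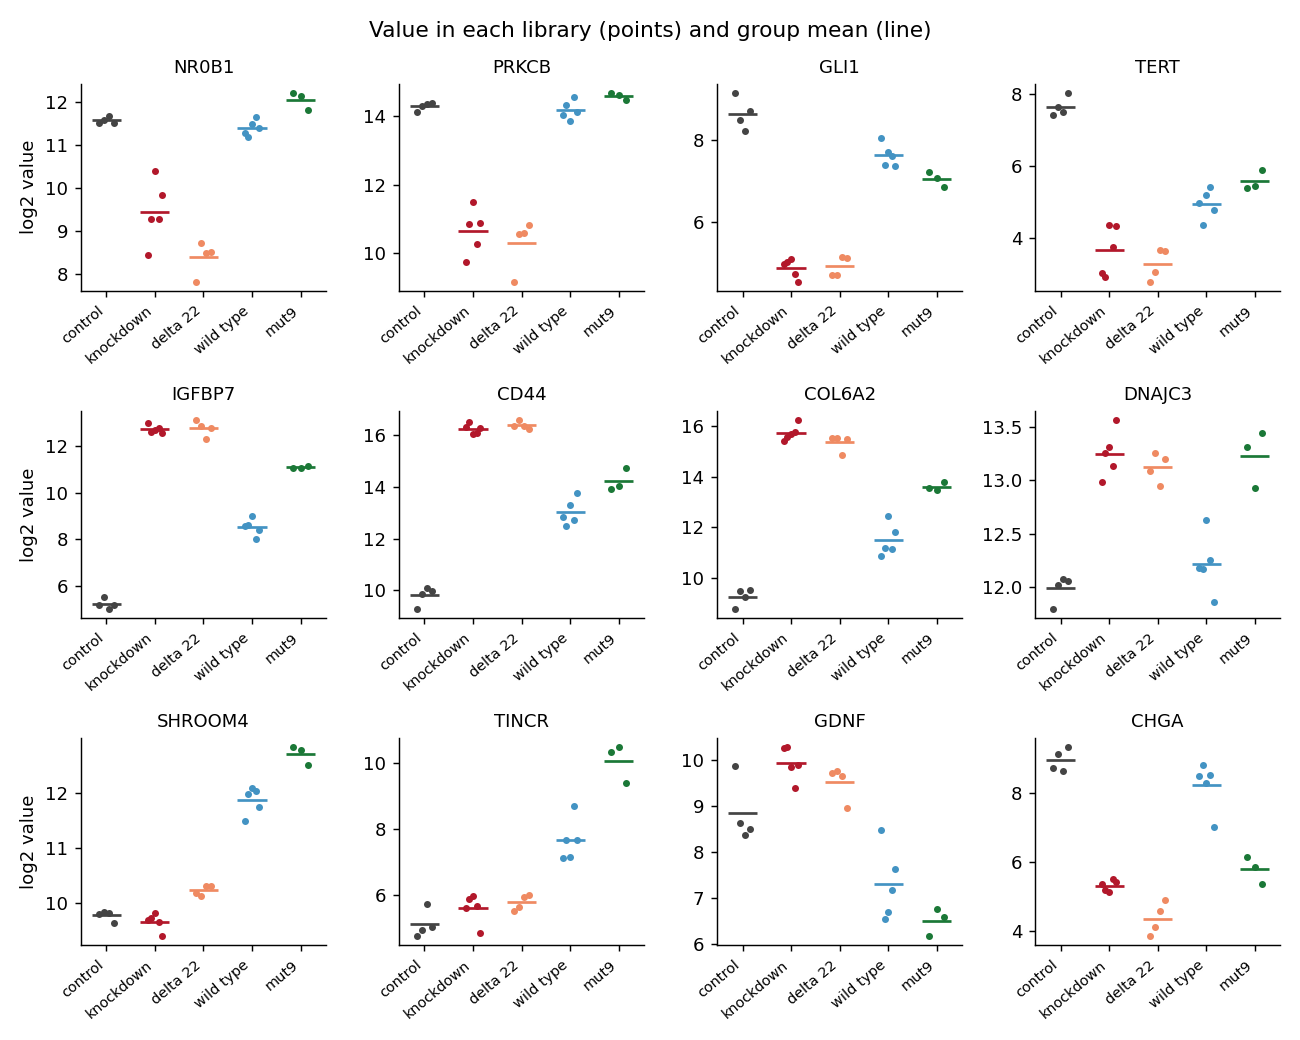
Log2 normalized value of 12 genes in each library (points, each panel with its own vertical scale that does not start at 0) and the mean of each group (line). PRKCB and NR0B1 with mut9 lie at or above control, GLI1 and TERT lie under it, IGFBP7, CD44 and COL6A2 lie between control and knockdown, and SHROOM4 and TINCR lie above every other group.

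Many extracellular matrix genes were above control. Of 22 collagen chain genes, 17 were higher and none was lower, with a median of 2.14 beside 1.00 in wild type and 2.42 in knockdown. COL6A2, a chain of the microfibrillar collagen type VI, was 8.80, 9.48, 9.24 and 9.53 in control, 13.54, 13.49 and 13.79 with mut9, 10.89 to 12.44 in wild type and 15.40 to 16.22 in knockdown. Its difference from control was 4.34 (SE 0.28, adjusted p = 1.31e-09) and from wild type 2.11 (adjusted p = 6.69e-05). COL6A3 of the same collagen lay 4.43 above control. Over the list, 14 of 22 were higher with mut9 than with wild type, and 9 were in batches 3 to 5 alone, where the median of the difference was 0.57 in batch 3, 1.09 in batch 4 and 0.98 in batch 5.

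Of 35 matrix glycoproteins and cross-linking enzymes, 32 were higher than control and none was lower, with a median of 1.93. Quantile scaling, the block by batch, weights per library and the fit of the compared groups alone each put 1 lower. THBS1, the adhesive glycoprotein thrombospondin 1, was 6.91, 6.95, 7.30 and 6.79 in control, 11.09, 10.63 and 11.23 with mut9 and 7.76 to 8.67 in wild type, 4.00 above control. LOX, which cross-links collagen, was 7.22 to 8.83 in control and 10.73 to 11.82 with mut9, a difference of 3.29 (adjusted p = 2.89e-07). Among proteases and their inhibitors, 19 of 28 were higher and none was lower, with 1 lower under weights or with the compared groups alone. MMP14 was 11.52 to 11.88 in control and 13.04 to 13.64 with mut9, a difference of 1.70 (SE 0.17, adjusted p = 2.49e-07).

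The largest rises over all genes included other secreted products. MGP, which inhibits mineral deposition in matrix, was 5.77, 5.64, 5.95 and 5.32 in control, 11.13, 12.53 and 11.90 with mut9 and 6.80 to 9.17 in wild type. It was 6.18 above control (SE 0.81, adjusted p = 7.71e-06) and 3.65 above wild type (adjusted p = 0.00326), and its mut9 values lay inside the knockdown range of 9.83 to 13.62. Complement factor I, CFI, was 5.88 to 6.02 in control, 10.91 to 11.49 with mut9, 7.03 to 8.82 in wild type and 8.79 to 10.67 in knockdown. All of its mut9 values lay above every other one of these groups. Periostin, POSTN, lay 5.02 above control, the protease inhibitor A2M 5.35, the secreted protease HTRA1 4.83 and the proteoglycan CSPG4 5.31.

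Cell surface and cytoskeleton genes followed with smaller values. Of 31 integrin and focal adhesion genes, 26 were higher than control and 1 was lower, with a median of 0.85 beside 0.74 in wild type. Of 30 actin genes and targets of the SRF and YAP factors, 20 were higher and none was lower (median 0.68), with 1 lower under weights. Of 22 mesenchymal markers, 16 were higher and none was lower (median 1.33), with 1 lower under quantile scaling, the block by batch, weights, the compared groups alone and without mut9 of batch 4. PDGFRA, a receptor of platelet-derived growth factor, was 5.65 to 5.94 in control, 10.27, 10.35 and 10.34 with mut9, 7.31 to 8.10 in wild type and 12.23 to 13.60 in knockdown. It lay 4.51 above control (SE 0.33, adjusted p = 7.45e-09). TWIST1, ZEB1 and CDH11 of the same list did not pass, with differences of -0.40, 0.06 and 0.01.

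Signalling genes were mixed. Of 25 genes of the TGF-beta pathway, 19 were higher than control and 1, the receptor gene ACVR2A, was lower, with a median of 1.02. In batches 3 to 5 alone and without mut9 of batch 5 none was lower, and under weights 2 were. The ligand TGFB2 lay 2.11 above control, the receptors TGFBR1 and TGFBR2 1.48 and 1.32, the signal transducer SMAD3 1.02 and the target TGFBI 2.28, while SMAD2 and SMAD4 had values of -0.12 and 0.08 and did not pass. Of 14 genes of the insulin-like growth factor axis, 12 were higher and none was lower (median 1.16), with 1 lower under weights or with the compared groups alone. In this axis IGFBP3, a binding protein of the growth factor in blood and matrix, was 9.33 to 9.53 in control, 13.96 to 14.19 with mut9 and 11.16 to 13.27 in wild type, a difference of 4.64 (adjusted p = 2.68e-08). The receptor gene IGF1R had a difference of 0.01 and did not pass.

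Of 38 receptor tyrosine kinase genes, 19 were higher, 5 were lower and 14 did not pass; without mut9 of batch 4, 12 were higher, and at a mean of at least 100, 2 of 31 were lower. EGFR lay 3.35 above control and AXL 3.19. The lower ones were KIT, FGFR4 at -1.51, RET at -1.64, FLT4 at -2.24 and ERBB3 at -0.62. Of 16 feedback genes of the MAPK pathway 8 were higher and none was lower. The hedgehog list had 3 higher and 3 lower of 13, with the receptor genes PTCH1 at -0.55 and SMO at -0.67 lower beside GLI1. Under quantile scaling 1 was higher, in batches 3 to 5 none was, and under weights 5 were lower. The Wnt list had 5 higher and 2 lower of 20. DKK3 and DKK1, secreted Wnt antagonists, lay 5.13 and 3.77 above control.

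A set of genes lay beyond both control and knockdown with mut9, a pattern in which the rescued cells do not sit on the line between these states. SHROOM4, an actin-binding protein gene, was 9.80, 9.83, 9.81 and 9.64 in control, 12.82, 12.77 and 12.50 with mut9, 11.49 to 12.09 in wild type and at most 9.82 in knockdown. It was above control by 2.92 (SE 0.12, adjusted p = 6.97e-12) and above wild type by 0.83 (adjusted p = 0.000145). The mut9 libraries stood above all other libraries of these groups.

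TINCR, a gene first known from skin cells, was 4.75, 4.93, 5.73 and 5.01 in control, 10.35, 10.48 and 9.39 with mut9, 7.11 to 8.71 in wild type and 4.84 to 5.97 in knockdown, a difference from control of 4.97 (adjusted p = 4.06e-09). The protease gene HTRA3 lay 3.90 above control and the sulfotransferase gene CHST8 2.88. These members were ranked for lying beyond both groups, so that part of the pattern is the choice itself. Their wild type differences from control were 2.55, 2.31 and 1.45.

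Below both groups lay GDNF, a neurotrophic factor, with 9.88, 8.64, 8.36 and 8.50 in control, 6.17, 6.75 and 6.57 with mut9, 6.54 to 8.48 in wild type and 9.86 to 10.28 in 4 knockdown libraries, with the other also above every mut9 library. It differed from control by -2.35 (SE 0.40, adjusted p = 9.88e-05). TNFSF13B, the B cell factor BAFF, was 8.80 to 10.16 in control, 5.99 to 6.70 with mut9, 5.83 to 7.10 in wild type and 8.20 to 9.51 in knockdown, a difference of -2.88. Mut9 and wild type overlapped in both. SCAND3 was 8.54 to 9.04 in control, 7.02, 7.28 and 7.43 with mut9 and 7.94 to 8.54 in wild type, and mut9 was below wild type with a difference of -1.09 (adjusted p = 0.0004).

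Several genes that knockdown moved strongly had mut9 values whose whole 95% interval lay within 0.5 of control. PCDH10, a protocadherin of cell adhesion, was 11.28, 11.41, 11.37 and 10.95 in control, 11.53, 11.35 and 10.90 with mut9 and 8.69 to 9.11 in knockdown, a difference of 0.01 (SE 0.22). The neuronal secreted protein gene OLFM1 was 13.10 to 13.45 in control and 13.06 to 13.58 with mut9 (difference 0.08). SLC26A2, a sulfate transporter, was 13.88 to 14.43 in control, 13.73 to 14.38 with mut9, 13.11 to 13.47 in wild type and 11.67 to 12.14 in knockdown. There the difference from control was -0.10, and mut9 was above wild type by 0.88 (adjusted p = 0.000404). Each was selected for its large knockdown difference and narrow interval, so the closeness to control is a description.

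The interferon and inflammation lists were above control, with values that differed by library. Interferons are secreted after sensing of viral nucleic acid, and their target genes then rise together. Of 39 interferon-stimulated genes 17 were higher and none was lower (median 1.55), beside 39 of 39 higher in knockdown. The mean over the list was 7.59 to 8.01 in control, 10.19, 9.17 and 8.97 with mut9, and 8.07, 9.36, 11.84, 8.20 and 9.08 in wild type batches 1 to 5. Batch 3 was thus the highest library of mut9 and of wild type, and with 12.84 also of knockdown. Without mut9 of batch 3, 10 members passed, in batches 3 to 5 alone 9 did, and without wild type of batch 3, which enters only through the shared spread, 30 did. With the compared groups alone 34 passed and under weights 31.

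SAMD9L, a growth-restraining interferon target, was 5.76, 5.94, 5.27 and 5.78 in control, 10.41, 9.48 and 9.51 with mut9 and 7.23 to 11.04 in wild type, a difference of 4.12. SAMD9, of the same family, lay 2.81 above control. Against wild type no interferon list member passed (median 0.22). Under weights 5 were higher, without wild type of batch 3 10 were, and 1 was lower under the block or without wild type of batch 4. Within batches that median was -1.55, 1.09 and 0.01 in batches 3, 4 and 5. Of 27 NF-kB and inflammation genes 16 were higher than control and none was lower (median 1.75), and 25 were higher with the compared groups alone. BCL3, a regulator of NF-kB, was 5.95 to 6.37 in control and 9.07 to 9.59 with mut9, a difference of 3.16 (adjusted p = 5.34e-08).

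MHC class I genes, which display peptides to T cells, were higher in 16 of 18 cases with none lower (median 1.35). In wild type 5 were higher and 1 was lower (median 0.53). HLA-B was 9.12, 10.42, 10.23 and 10.09 in control, 14.23, 13.08 and 13.22 with mut9, and 10.95 to 14.95 in wild type, where batch 3 gave the highest value and batch 2 the next, 11.96. HLA-E was 11.03 to 11.64 in control and 13.27 to 13.61 with mut9 (difference 2.01, SE 0.23, adjusted p = 1.72e-06). Against wild type 6 of 18 were higher with mut9, with a median of 0.84. All 18 were without wild type of batch 3, 15 under weights and 3 without mut9 of batch 3, and the median was -0.14 within batch 3, 0.95 in batch 4 and 0.94 in batch 5. HLA genes are alike in sequence and may share reads.

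Chaperone genes of the endoplasmic reticulum were higher with mut9 than in control and wild type. The unfolded protein response raises such genes when unfolded proteins gather there. Of 15 tested, 14 were higher with mut9 than in control, none was lower, and PDIA6 at 0.46 did not pass, with a median of 0.99. In wild type 3 were higher than control (XBP1, DNAJB9 and EDEM1), with a median of 0.04, and in knockdown 13 were higher with a median of 0.71. The list median of mut9 minus knockdown was 0.09, and the list means overlapped, at 13.03 to 13.53 with mut9 and 12.83 to 13.44 in knockdown. Set directly against wild type, 14 of 15 were higher with mut9 and none was lower, with a median of 0.84.

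HSPA5, the main chaperone BiP (chosen after its values were seen), was 13.51, 13.86, 13.88 and 13.76 in control, 15.21, 14.58 and 15.08 with mut9, and 13.51, 13.88, 14.76, 13.65 and 13.57 in wild type batches 1 to 5. All mut9 libraries lay above all control libraries, while wild type of batch 3 lay inside the mut9 range. DNAJC3, a co-chaperone, was 11.80, 12.02, 12.08 and 12.06 in control, 13.31, 12.93 and 13.44 with mut9 and 11.86 to 12.63 in wild type. It was higher than control by 1.24 (SE 0.15, adjusted p = 3.53e-06) and than wild type by 1.01 (adjusted p = 0.000164). Within batches the median of mut9 minus wild type over the list was 0.55, 0.67 and 1.16 in batches 3, 4 and 5. Without mut9 of batch 3, 7 of the 15 passed against wild type. The part of batch 3 in this difference was not tested beyond that.

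**Figure D3:**
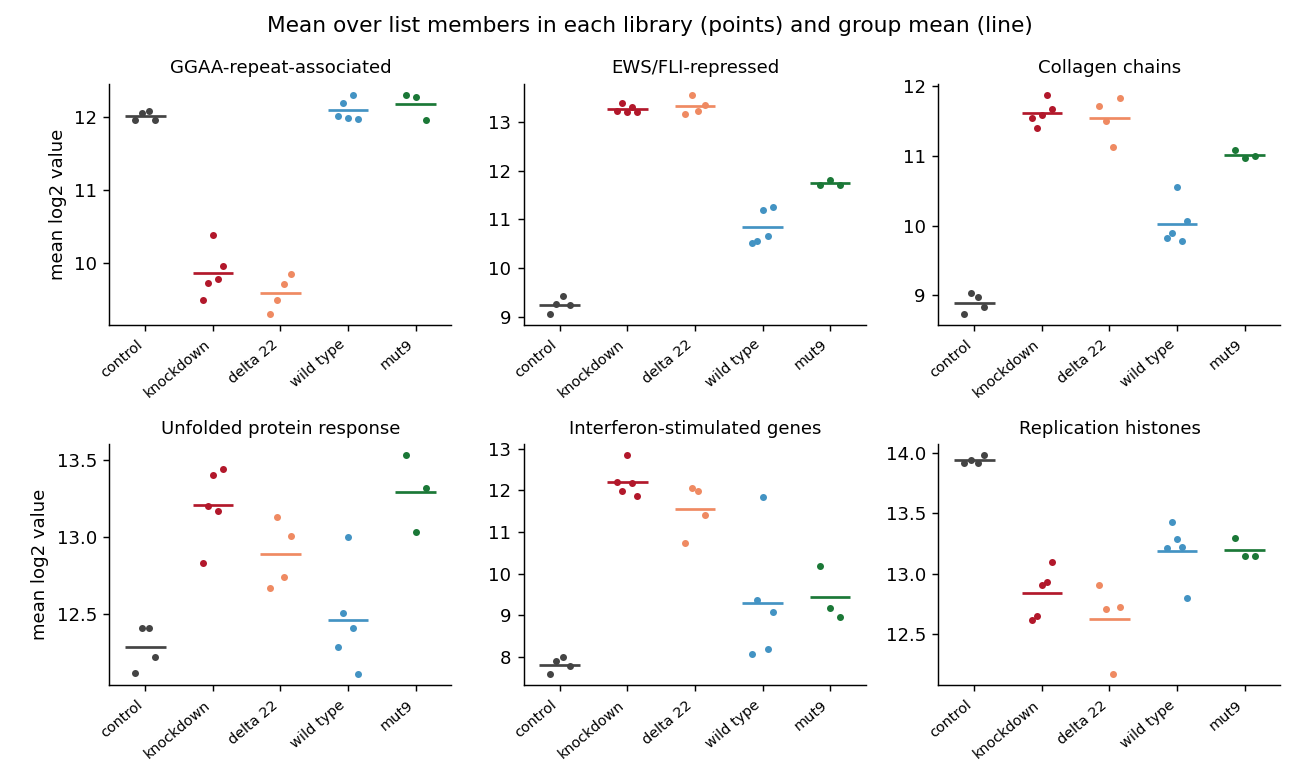
Mean log2 normalized value over the members tested of 6 gene lists in each library (points, each panel with its own vertical scale that does not start at 0) and the mean of each group (line). The GGAA-repeat list with mut9 overlaps control, the repressed and collagen lists lie between control and knockdown, and the unfolded protein response list lies at 13.03 to 13.53 with mut9, beside 12.12 to 12.41 in control; wild type of batch 3 is the highest wild type point of the interferon list.

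The replication histone, ribosomal protein, DNA replication and mitosis lists were lower with mut9 by small amounts, with no member called at 2-fold or more. Their medians are read beside -0.22 for 14 reference genes, of which 7 were lower and 3 higher. All 15 replication histone genes were lower (median -0.75), as in wild type (15 lower, median -0.76). The histone list mean was 13.92 to 13.98 in control and 13.30, 13.15 and 13.15 with mut9. H1-1, a linker histone gene, was 12.16 to 13.01 in control and 11.69 to 11.90 with mut9. These genes are alike in sequence, and most of their RNAs have no poly(A) tail, so values depend on how RNA was selected.

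Of 30 ribosomal protein genes 29 were lower (median -0.51), of 34 DNA replication genes 24 (median -0.44) and of 26 mitosis genes 20 (median -0.46), with none higher in the 3 lists. For mitosis, 13 passed without mut9 of batch 5 and 12 in batches 3 to 5. The telomerase, MYC and oncofetal list had 11 lower and 1 higher of 15 (median -0.63), and none higher of 12 at a mean of at least 100. At least 2-fold, 4 of the 15 were lower and 1 higher, beside 1.95% and 9.5% of all genes. LIN28B, which blocks let-7 miRNA maturation, was 12.92, 11.66, 11.52 and 12.25 in control and 9.29, 9.76 and 9.80 with mut9 (difference -2.47, SE 0.75, adjusted p = 0.012). NPM1, the nucleolar protein nucleophosmin, differed by -0.99 and ODC1, the first enzyme of polyamine synthesis, by -1.22. The higher one was MYCN, 6.43 to 6.87 in control and 7.89 to 8.87 with mut9. Of 21 cyclins and their inhibitors 4 were higher and 4 lower (median 0.13). Under weights or with the compared groups alone 7 were lower, and in batches 3 to 5 there were 2 higher and 1 lower. The inhibitor CDKN1A lay 1.96 above control, far from the list median.

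Metabolic lists held more lower than higher calls. Of 28 oxidative phosphorylation subunits 22 were lower (median -0.28), beside 12 in batches 3 to 5 alone, and 15 had their interval within 0.5 of 0. That median lay near the -0.22 of the reference genes. Of 29 sterol and fatty acid synthesis genes 11 were lower and none was higher (median -0.35), but the block by batch gave 17 lower and 1 higher, weights gave 17 lower, the compared groups alone gave 1 higher, and batches 3 to 5 alone gave none. Leaving out single libraries gave 2 without mut9 of batch 5, 3 without control of batch 2, 6 without mut9 of batch 4, and 7 without control of batch 1 or 3. Of 24 glycolysis and hypoxia genes 6 were higher and 9 lower (median -0.18), and 5 were lower without mut9 of batch 5. The glucose transporter SLC2A3, among the higher ones and so against the list median, was 10.29 to 10.83 in control and 12.36 to 12.56 with mut9. Its difference was 1.90 (adjusted p = 2.68e-07). The ATF4 and one-carbon list had 4 higher and 6 lower of 26. The block gave 7 higher, the compared groups alone 8 higher, weights 7 higher and 10 lower, and batches 3 to 5 alone 1 lower.

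**Figure D4:**
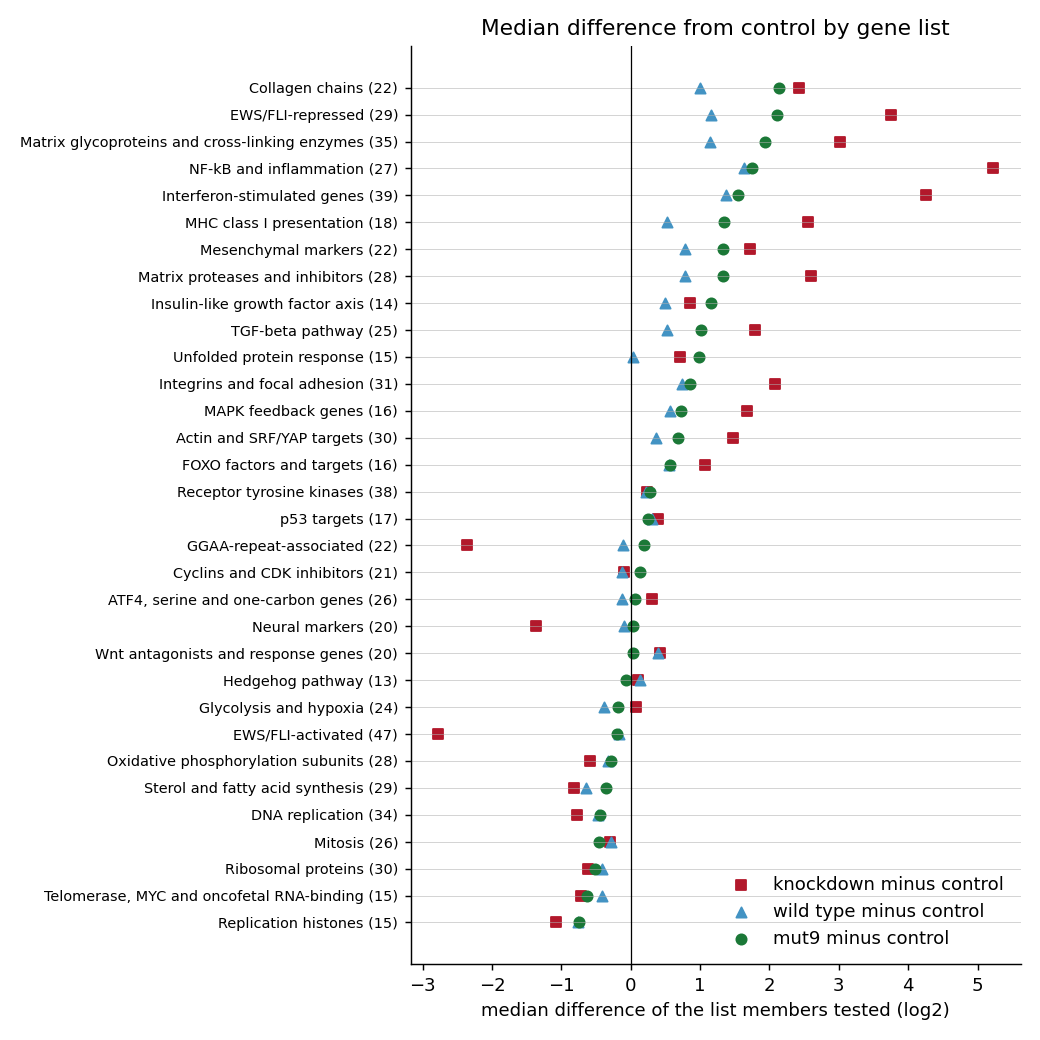
Median difference from control (log2) over the members tested of 32 gene lists, with the number of members in brackets, for knockdown (squares), wild type (triangles) and mut9 (circles), which all share the 4 control libraries. Mut9 lies right of wild type for the collagen list (2.14 against 1.00) and the unfolded protein response list (0.99 against 0.04), and near it for the EWS/FLI-activated list (-0.20 against -0.17).

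The largest falls at a mean of at least 100 were led by the orphan receptor gene GPR160, with 9.28, 9.69, 9.94 and 9.43 in control, 6.31, 5.96 and 6.28 with mut9, 6.40 to 7.20 in wild type and 5.41 to 5.89 in knockdown. It differed by -3.40 (SE 0.20, adjusted p = 4.62e-10). ALPL, the tissue-nonspecific alkaline phosphatase, was 8.69 to 9.41 in control, 6.04 to 6.14 with mut9 and 6.05 to 8.23 in knockdown. The muscle genes NEB and TNNT1 differed by -2.24 and -2.16. Under that level lay the 2 largest falls of all genes tested, both of the terminal complement pathway and named after their values were seen. C7 was 11.79, 9.84, 9.01 and 9.59 in control, 4.17, 4.97 and 3.92 with mut9 and 3.19 to 6.07 in wild type (difference -5.71, adjusted p = 1.47e-06). C6 was 8.80, 8.15, 7.80 and 7.73 in control, 4.56, 4.20 and 3.39 with mut9 and 4.77 to 6.63 in wild type (difference -4.07), and it was lower with mut9 than with wild type (adjusted p = 0.00327).

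A last reading used different libraries to choose genes by their knockdown difference and to measure them. The 18040 genes it started from had passed the filter over all 21 libraries, so the choice was not fully independent. Genes at least 2-fold apart between knockdown and control in batches 1 and 2 numbered 3437 raised and 1846 lowered, and they were read in batches 3 and 5. The raised genes had median differences from the control of the same batch of 1.70 and 1.73 in knockdown, 0.76 and 0.82 with mut9, and 0.69 and 0.83 in wild type. The lowered genes had medians of -1.23 and -1.34 in knockdown, -0.42 and -0.52 with mut9, and -0.44 and -0.53 in wild type. In each batch these medians share 1 control library.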

How the data were processed

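The data are 1 table of gene-level RNA-seq values for 21 libraries, made from 2.5 ug of total RNA each with ScriptSeq, per the labels. The values are normalized log2 values as the authors deposited them, from -4.1 to 20.2, with 17358 of 57820 genes at exactly 0 in every library. The submitters' processing notes name bcl2fastq, STAR 2.5.2b, HTSeq, DESeq2 and hg19. Their form is that of shrunken logarithms, which draw low genes together, so fold changes of low genes are understated. Neither raw counts nor depth can be read from them, and strand handling is not given in the sources used here. Antisense partners and near-identical genes (GSTM, HLA, histone and ribosomal protein genes) may therefore share reads.

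No logarithm was added. Groups came from the labels. Genes with at least 10 on the linear scale in 3 libraries were fitted with limma 3.58.1 (trend, R 4.3.3), 1 mean per group over all 21 libraries, 2-sided, with Benjamini-Hochberg adjustment over 18040 genes and calls below 0.05. For FLI1 and EWSR1 an exact permutation of libraries was run as well. IDs were joined to GENCODE 29 and RefSeq names, with 51996 matched. No 2 libraries had identical values (highest correlation 0.9978).

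The replicate number is the labelled batch, so it pairs libraries. Deviations from group means correlated by 0.20 on average over 34 same-number pairs and by -0.05 over 141 others, and 24 of the 34 exceeded 0.1. Members, lists and tests were chosen with earlier results of these data known. Lists came from general knowledge, were not checked against a source, and are described by counts and medians. Named are FLI1 and EWSR1, 22 preset Ewing sarcoma genes, the 15 largest rises and falls at a mean of at least 100 without overlap, up to 4 members per list with the smallest adjusted p, 5 genes on each side beyond control and knockdown, and 8 genes with an interval within 0.5 of 0 and a large knockdown difference. A selection of these is printed, 1 of the genes beyond both groups is not reported here, and members of a list that go against it or did not pass are named with their values. Alternatives were other filters and scalings, a batch block, weights, fewer groups or batches, and single libraries left out. Leaving out wild type of batch 3 for list counts, and choosing genes in batches 1 and 2, were added after seeing the data.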

Additional observations from a re-analysis of the deposited data

Results flagged for a closer look

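The 4 control libraries were examined for 216 named genes and list means, and 8 had 1 library far from the other 3, fewer than the roughly 1 in 20 that chance gives. TM4SF1, a membrane protein gene, was 5.91 in control of batch 1 beside 6.16 to 6.17, with 10.63 to 11.36 with mut9. KLF9 was 7.37 there beside 6.21 to 6.40, and HTRA3 was 5.56 beside 6.59 to 6.67. SHROOM4 was 9.64 in control of batch 5 beside 9.80 to 9.83, and the ATP synthase gene ATP5F1B was 15.03 there beside 15.25 to 15.28. The mean over immune cell markers was 4.86 in control of batch 1 beside 5.17 to 5.21, and that over ribosomal proteins 14.7 beside 14.54 to 14.55. The mean over oxidative phosphorylation subunits was 12.11 in control of batch 5 beside 12.21 to 12.23.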

How the results depend on the processing

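Of the counts over all genes for mut9 against control, those of higher calls stayed within 1.5 times under every alternative run. A mean of at least 100 left 1339 genes at least 2-fold apart, 158 of them lower, since fewer genes were tested. Quantile scaling gave 5218 lower calls, 616 of them at least 2-fold, and 2105 lower calls against wild type. The replicate block by batch changed no count over all genes by more than 1.5 times (8035 calls), and the list counts against control that it moved by more stand beside those lists. Against wild type it also moved matrix proteases from 6 to 10 higher and sterol genes from 3 to 9 higher, among 23 list counts moved by more than 1.5 times in the 2 comparisons. For mut9 against wild type, weights per library gave 5234 calls (3063 higher, 2171 lower) and batches 3 to 5 alone 1745 (1080 higher, 665 lower), with fewer libraries. Leaving out 1 control or mut9 library at a time gave 6168 to 7244 calls against control, and leaving out 1 knockdown or wild type library 7541 to 7773. Against wild type, leaving out 1 mut9 or wild type library gave 1723 to 3572 calls (1056 to 2187 higher, 667 to 1385 lower). Without mut9 of batch 3 there were 1723 calls against wild type and without mut9 of batch 4 1903. FLI1 within batches 3 and 5 differed by -1.18 and -1.58. Among named genes, GSTM4, CCND1, BOC, DISP1, CCNG1, ACLY, EBP, FDFT1, HSD17B7, MTHFD2 and ROBO4 no longer passed against control in batches 3 to 5 alone, and the cause was not tested. Over the 2 comparisons together, 34 results of named genes were weaker in batches 3 to 5 alone. Those against wild type are not listed by gene, so single-gene values against wild type are read with that limit. List counts of 4 or fewer moved most often, among them the Wnt list (4 lower under quantile scaling, 1 lower without mut9 of batch 3 or 5 or control of batch 1, 2 or 3). No named gene that passed changed sign under the alternatives run, but some that did not pass did, among them SOX2, PCDH10, SLC26A2 and OLFM1 against control. Quantile scaling turned the median over all genes from 0.027 to -0.116, the share of higher calls from 55.4% to 38.4%, and the calls against wild type from 2018 higher and 1372 lower to 1648 and 2105. Within batch 3 the medians of mut9 minus wild type were negative for the interferon (-1.55, beside 0.22), NF-kB (-0.77, beside 0.62) and MHC lists (-0.14, beside 0.84). With 3 mut9 libraries and unknown depth, small differences cannot be told from scaling.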

Other observations

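Gene lists of growth control gave mixed counts. Of 17 p53 targets 7 were higher than control and 2 lower, none of them in batches 3 to 5 alone (median 0.25, beside 0.31 in wild type). The secreted stress factor GDF15 lay 3.04 above control and BTG2, which slows the cell cycle, 1.77, while MDM2, the ligase that degrades p53, was at -0.33. Of 16 FOXO factors and targets 9 were higher and 1, FOXO6, lower (median 0.57). FOXO6, named after its values were seen, had a difference of -0.69 (limma adjusted p = 0.0332). It did not pass without a filter, under the replicate block by batch, in batches 3 to 5 alone, or without control of batch 1, 2 or 5 or mut9 of batch 3 or 5, and at a mean of at least 100 it was not tested. KLF9, a zinc finger factor, was 6.21 to 7.37 in control, 8.89, 9.47 and 8.46 with mut9 and 6.57 to 7.58 in wild type, so mut9 stood apart from both. It was above wild type by 1.86 (limma adjusted p = 0.00122). Of 14 reference genes 3 were higher and 7 lower (median -0.22), with none past 2-fold, and 1 was higher without mut9 of batch 5.

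By kind of gene, 47.9% of 14234 protein-coding genes were called between mut9 and control, beside 27.1% of 767 lincRNA genes and 18.6% of 959 antisense genes. Of 86 snoRNA genes 5.81% were called. Pseudogenes had 71 higher and 154 lower calls of 1044, where lincRNA genes had 140 higher and 68 lower. The level of these kinds differs and was not matched. Reads of pseudogenes can come from their parent genes.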
